A study of Mus musculus with 18 samples.

Results

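Oligodendrocytes wrap axons of the central nervous system in myelin, and 38 genes of their lineage were followed here in the mouse hippocampus: 28 genes of mature, myelinating cells, 3 genes of maturing cells, 5 transcription factors of the lineage and 2 genes of the precursor cells. The members were listed by symbol and matched to Ensembl gene identifiers, and all 38 had 1 row among the 57180 rows of the count table. All 38 also had enough counts to test and are 38 of the 16738 genes tested.

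The mice were wild-type adolescent male C57BL/6J animals in 3 groups of 6, with 1 hippocampal library per mouse and no drug, transgene or deletion named in the labels of any group. Control mice had neither stress nor training. CSDS mice went through chronic social defeat stress, in which an intruder mouse is repeatedly exposed to an aggressive resident. The exercise group received aerobic exercise training that began 1 week before the same stress and went on throughout it, so it differs from the CSDS group by exercise and from the control group by exercise and stress together. No group had exercise without stress, so exercise was compared only in stressed mice.

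Oligodendrocyte precursor cells divide and persist throughout the brain, and in adolescence many of them leave the cell cycle, pass through a short premyelinating stage and begin to ensheath axons. OLIG1, OLIG2, SOX10, NKX6-2 and MYRF are the transcription factors that set the lineage and switch on the myelin program, whose products are structural proteins that compact or seal the sheath and enzymes that make its galactolipids. In the hippocampus myelin lies mainly in the alveus and fimbria and in the deep layers, and both social stress and physical activity have been studied as influences on it. In bulk tissue, fewer cells of a type and less RNA per cell cannot be told apart.

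Each library held 18911080 to 24136591 counts, and levels are given as CPM, a gene's counts scaled by the library total with TMM factors. Several libraries stood apart in markers of tissue outside the hippocampus. Control replicate 2 had the highest mean level of 11 neocortical markers (5.43 log2 CPM; next highest 4.23) and the lowest mean level of 12 dentate granule cell markers. The mean level of 10 thalamic markers was 5.11 and 6.00 log2 CPM in control replicates 1 and 3 and 5.21 and 6.43 log2 CPM in exercise replicates 3 and 6, against 3.13 to 3.57 log2 CPM in the other 14 libraries. Thalamus is rich in myelin, so values without these 5 libraries stand beside the larger differences that they moved; the markers' part in the results was not tested. The summed level of 5 tested markers of Schwann cells, the glia of peripheral nerves, was 116 to 165 CPM in controls, 122 to 186 CPM in CSDS mice and 106 to 172 CPM with exercise. Pou3f1, one of these 5, is also listed as a marker of the hippocampal field CA1, so the sum does not measure Schwann cells alone.

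The upstream sequences of 3 sheath genes, a transcription factor and a precursor gene are shown because they differ in GC content and in the motif letters they hold. RefSeq (GRCm38.p6) held a promoter for 28 of the 38 members, with 38 start sites among them, and the 250 bases before the start are described. Mog lies on the minus strand (chr17:37023399-37023648), Cnp on the plus strand (chr11:100574689-100574938), Mobp on the plus strand (chr9:120149492-120149741), Nkx6-2 on the minus strand (chr7:139582798-139583047) and Cspg4 on the plus strand (chr9:56864854-56865103). Each is written 5′ to 3′ along the gene, and capitals mark matches, on either strand, to the core letters bound by MYRF (CTGGCAC or CTGGTAC), to the SOX core ACAAAG, to the E box CAGCTG or to the TATA box TATAAA. No marked matches overlapped in the sequences shown.
Mog: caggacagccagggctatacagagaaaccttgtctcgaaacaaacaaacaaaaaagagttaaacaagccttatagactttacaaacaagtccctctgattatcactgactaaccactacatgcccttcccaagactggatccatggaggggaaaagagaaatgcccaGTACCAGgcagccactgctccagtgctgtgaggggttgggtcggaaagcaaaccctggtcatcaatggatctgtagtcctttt
Cnp: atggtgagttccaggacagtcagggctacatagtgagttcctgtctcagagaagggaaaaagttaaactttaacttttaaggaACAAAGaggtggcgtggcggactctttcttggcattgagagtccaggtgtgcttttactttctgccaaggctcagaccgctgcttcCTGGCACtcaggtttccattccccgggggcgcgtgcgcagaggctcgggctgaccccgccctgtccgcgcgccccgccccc
Mobp: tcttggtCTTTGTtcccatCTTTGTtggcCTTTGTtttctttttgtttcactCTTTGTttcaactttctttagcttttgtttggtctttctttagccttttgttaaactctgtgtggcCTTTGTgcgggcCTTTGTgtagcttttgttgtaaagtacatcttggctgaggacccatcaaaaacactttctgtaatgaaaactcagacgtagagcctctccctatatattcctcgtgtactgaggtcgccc
Nkx6-2: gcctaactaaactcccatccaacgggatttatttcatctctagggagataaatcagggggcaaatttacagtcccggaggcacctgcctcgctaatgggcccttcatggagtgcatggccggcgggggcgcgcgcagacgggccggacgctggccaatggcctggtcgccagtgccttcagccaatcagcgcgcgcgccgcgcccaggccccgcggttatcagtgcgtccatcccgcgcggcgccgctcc
Cspg4: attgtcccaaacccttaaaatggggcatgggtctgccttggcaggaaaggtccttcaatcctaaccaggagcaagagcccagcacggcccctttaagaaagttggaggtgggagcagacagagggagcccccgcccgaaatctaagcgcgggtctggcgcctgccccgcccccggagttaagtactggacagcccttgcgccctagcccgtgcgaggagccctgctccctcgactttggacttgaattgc

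Mog held 1 match to CTGGTAC at 83 bases before the start, Cnp held 1 match to CTGGCAC and 1 to the SOX core, and Mobp held 6 matches to the SOX core. Nkx6-2 and Cspg4 held none of these letters, and Nkx6-2 held 26 CpG dinucleotides against 2 in Mog and 4 in Mobp. Over all 32536 RefSeq promoters of this length, CTGGCAC was found in 4.21%, CTGGTAC in 1.82%, the SOX core in 16.5%, the E box in 13.1% and the TATA box in 12.3%. Among the 38 member promoters the same letters stood in 7.89%, 2.63%, 26.3%, 10.5% and 7.89%. The matches to CTGGCAC were in 3 promoters of 2 genes, Cnp and Mag, and the Mag promoters that held it overlap. Those to the SOX core were in 10 promoters of 8 genes. The median number of CpG dinucleotides was 5 in 33 promoters of mature genes, 24 in the promoters of Nkx6-2 and Olig2 and 6 over all promoters. A match is a description of letters and not a site of binding.

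The members covered a wide range of expression. Divided by the length of the longest annotated transcript, Mbp stood highest at 730 CPM per kilobase over the 18 libraries, followed by Mobp at 311, Cnp at 165, Trf at 145 and Qdpr at 144 CPM per kilobase. The transcription factors lay between 5.44 CPM per kilobase for Nkx6-2 and 52.5 for Olig1. Pdgfra and Cspg4, which mark precursor cells, stood at 10.3 and 3.80 CPM per kilobase, and Enpp6, Ninj2 and Klk6 were lowest at 1.98, 1.75 and 0.811 CPM per kilobase. Within groups the members varied more than a typical gene: the median SD of log2 CPM around the group means was 0.333 over the members and 0.280 over all genes tested. Klk6 varied most, with an SD of 1.08 and a highest library 21.6 times the lowest. Pdgfra varied least, with an SD of 0.154, which placed it at percentile 15 of all genes tested.

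**Figure D1:**
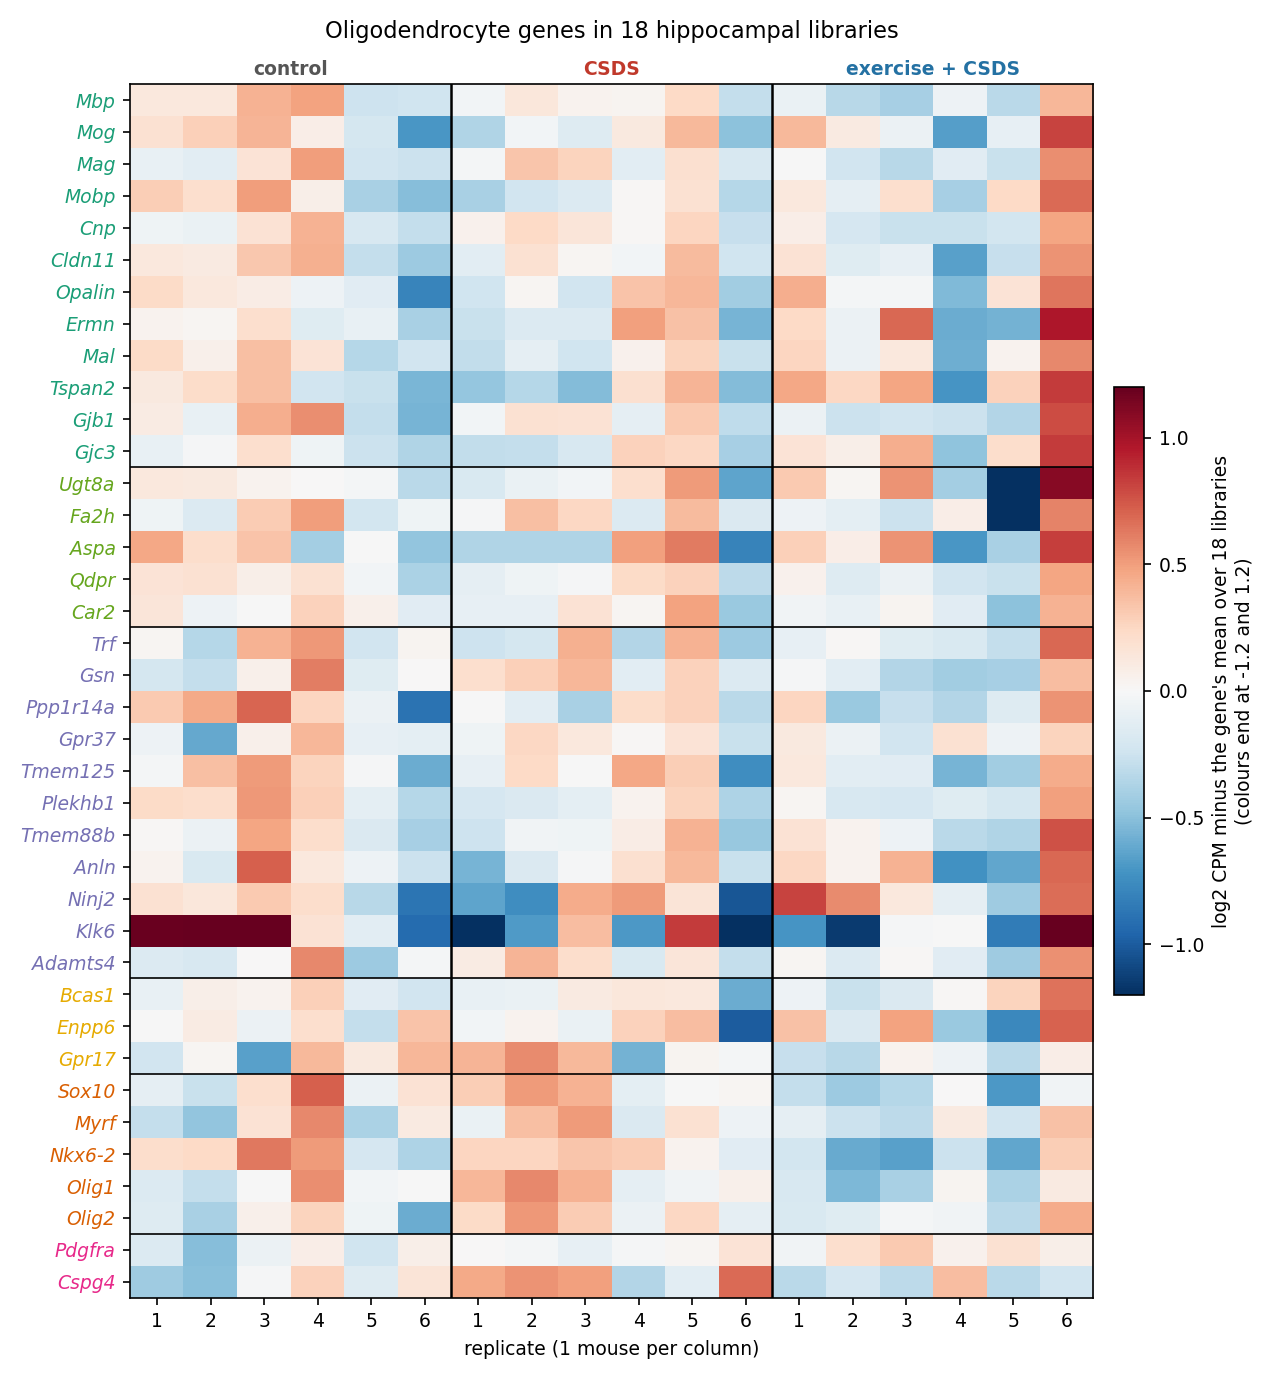
Log2 CPM of each of the 38 genes (rows, grouped by stage, names coloured by class) in each of the 18 mice (columns, replicate numbers within group), minus the gene's mean over all libraries. Exercise replicate 6 is the highest of the 18 libraries for 20 of the 38 genes, and the rows of the transcription factors (orange names) are lower in most exercise columns than in the CSDS columns.

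No member passed the test in any of the 3 comparisons. The test was edgeR's quasi-likelihood test fitted on all genes, with Benjamini-Hochberg adjustment and a threshold of 0.05. Of all genes, 0% passed in CSDS against control, 0% in exercise with CSDS against CSDS and 0.0179% (3 genes, none a member) in exercise with CSDS against control. The lowest adjusted p among the members was 0.993, 0.213 and 0.306 in these comparisons. The counts at an unadjusted p under 0.05 were small: 2 members higher and 0 lower in CSDS mice against controls, where 1.83% of all genes were higher and 1.68% lower at that level; 1 higher and 4 lower with exercise against CSDS, where 8.10% were higher and 7.46% lower; and 1 higher and 2 lower with exercise against control, where 6.80% were higher and 4.39% lower. The median log2 difference over the members was -0.03, 0.01 and -0.06, beside 4.02e-05, 0.02 and 0.01 over all genes tested. DESeq2 called 0 members in each comparison. Of all genes to which it gave an adjusted p, it called 1 of 31251, 150 of 14443 and 111 of 17333.

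**Figure D2:**
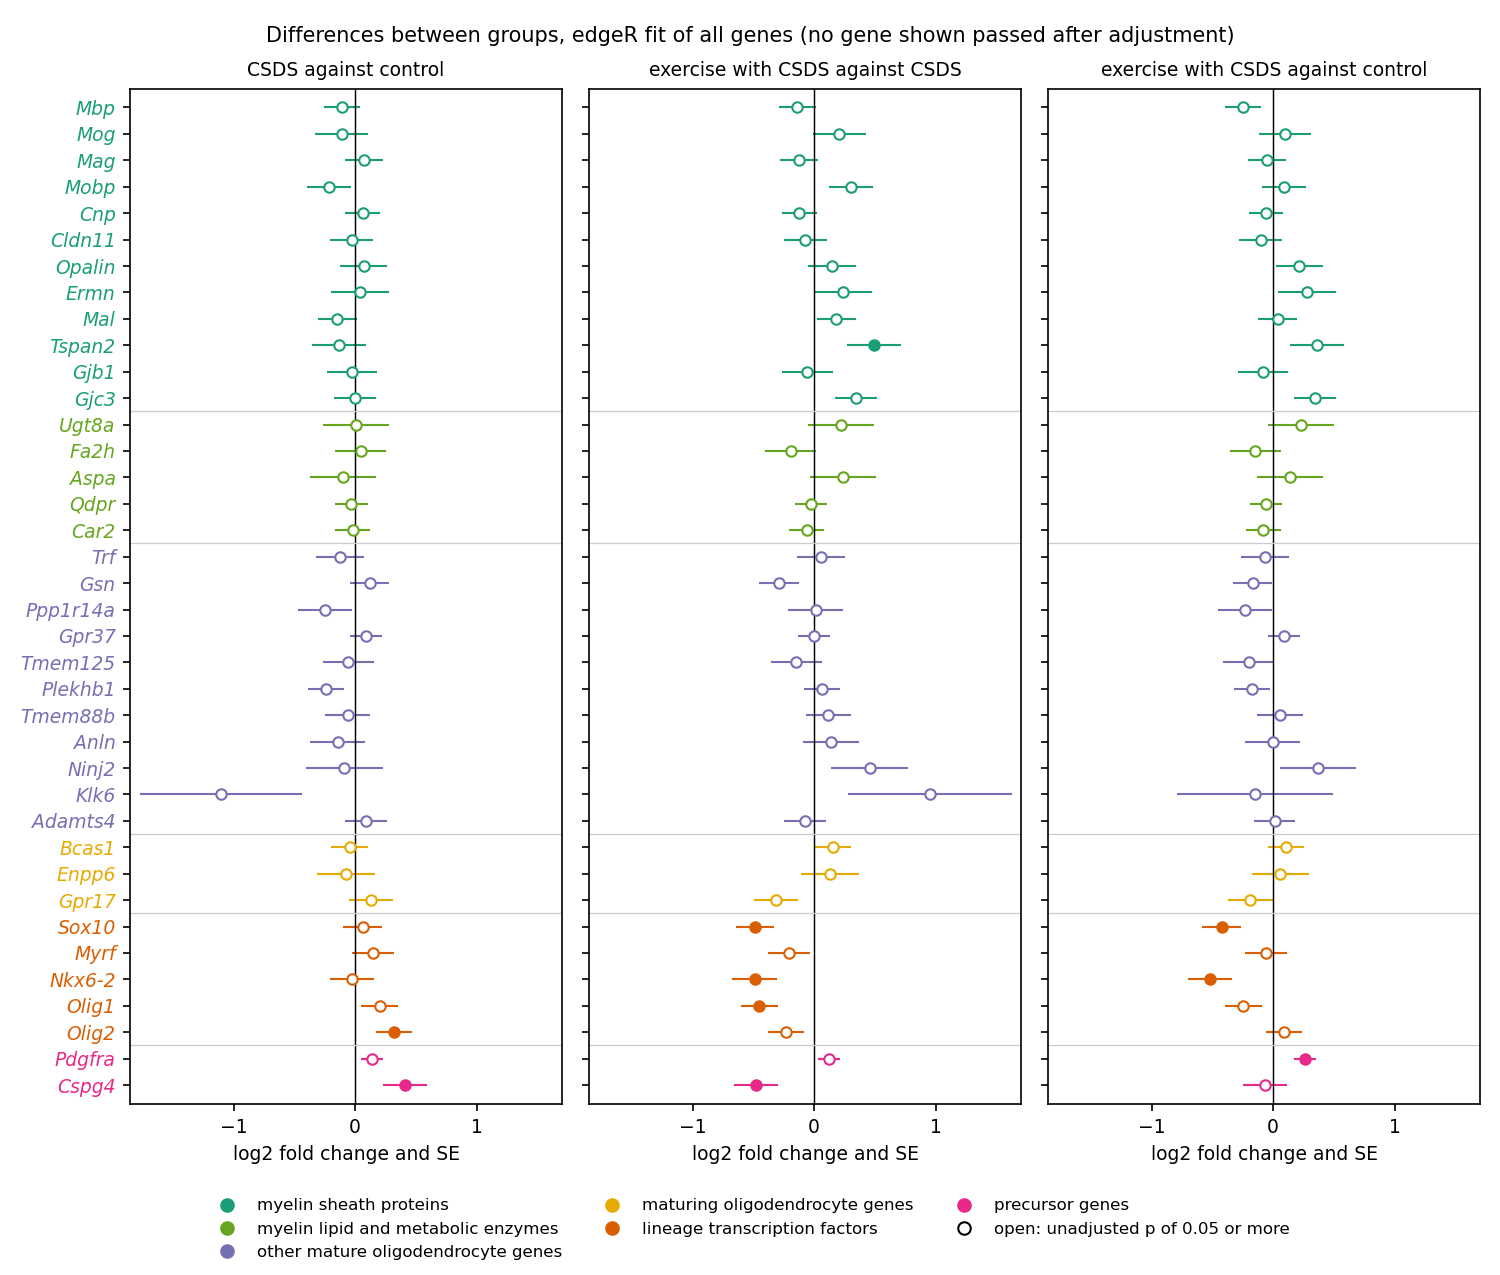
Log2 fold change and its standard error for each of the 38 genes in the 3 comparisons, from 1 edgeR fit of all genes to the 18 libraries. Filled points have an unadjusted p under 0.05 and no point passed after adjustment; the 5 transcription factors (orange) lie left of 0 in the middle panel, from -0.49 to -0.20.

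The 12 sheath protein genes, which give myelin its structure, had no common direction in the fit of all 18 libraries. Of them 5 were higher and 7 lower in CSDS mice than in controls (median log2 difference -0.03), 7 higher and 5 lower with exercise than with CSDS alone (median 0.16), and 7 higher and 5 lower with exercise than in controls (median 0.06). Summed over the 12 genes, the level was 4920 to 7994 CPM in controls, 4957 to 7208 CPM in CSDS mice and 5214 to 8633 CPM in the exercise group. The 3 ranges overlapped almost wholly. Without the 5 libraries that stood apart, 11 were higher and 1 lower in CSDS mice than in controls (median 0.10), and the median for exercise against CSDS turned to -0.09, with 6 higher and 6 lower; 0 had an unadjusted p under 0.05 in either.

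Mbp, whose product holds the cytoplasmic faces of compact myelin together, lay between 2901 and 4818 CPM in controls (median 3760), between 2832 and 4051 CPM in CSDS mice (median 3530) and between 2620 and 4526 CPM in exercised mice (median 3003). The groups overlapped, and exercise replicate 6 stood well above the other 5 exercised mice. The log2 difference was -0.11 ± 0.15 (SE) for CSDS against control (adjusted p = 0.993), -0.14 ± 0.15 for exercise against CSDS (adjusted p = 0.664) and -0.25 ± 0.15 for exercise against control (adjusted p = 0.539).

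Mog, a surface protein of the outermost myelin layer, ranged from 57.2 to 123 CPM in controls (median 102), from 66 to 122 CPM in CSDS mice (median 87.1) and from 58.8 to 162 CPM with exercise (median 94.1). All 3 groups had mice near the bottom of the range, and the top value, 162 CPM, was that of exercise replicate 6. Its log2 differences were -0.11 ± 0.22, 0.21 ± 0.22 and 0.10 ± 0.22 in the 3 comparisons, each smaller than its standard error.

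Mag, an adhesion molecule of the membrane facing the axon, ranged from 198 to 334 CPM in controls (median 220), from 207 to 297 CPM in CSDS mice (median 251) and from 187 to 349 CPM with exercise (median 208). The highest exercised mouse was replicate 6 and the highest control was replicate 4, while the other mice of the 3 groups were intermixed. The log2 differences were 0.07 ± 0.16, -0.12 ± 0.16 and -0.05 ± 0.16.

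Among the other sheath genes, Tspan2, a tetraspanin of the oligodendrocyte membrane, had the largest difference. Its level was 99.1 to 186 CPM in controls (median 141), 101 to 192 CPM in CSDS mice (median 110) and 88.9 to 259 CPM with exercise (median 188). With exercise 5 of 6 mice were above the median of the CSDS mice and replicate 4 was the lowest of all 18, so the groups overlapped. The log2 difference of exercise against CSDS was 0.49 ± 0.22 (unadjusted p = 0.0391, adjusted p = 0.301), and without the 5 libraries named above it was 0.29 ± 0.22.

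Mobp, an abundant basic protein of compact myelin, and Gjc3, the gap junction protein connexin 29, had the next largest differences of exercise against CSDS. Mobp was 762 to 1128 CPM in CSDS mice (median 869) and 755 to 1595 CPM with exercise (median 1115), beside 698 to 1413 CPM in controls (median 1095). Gjc3 was 38 to 60.7 CPM in CSDS mice (median 42.5) and 35.8 to 89.6 CPM with exercise (median 57.2), beside 39.2 to 57.8 CPM in controls (median 47.7). For both genes the exercise group held the lowest and the highest value of the 2 groups, and exercise replicate 6 was the highest. The log2 differences were 0.30 ± 0.18 (adjusted p = 0.406) for Mobp and 0.34 ± 0.17 (adjusted p = 0.346) for Gjc3, and without the 5 libraries they were 0.13 ± 0.15 and 0.10 ± 0.16.

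The remaining sheath genes gave smaller differences of exercise against CSDS: -0.12 for Cnp, an enzyme that keeps cytoplasmic channels through the sheath open; -0.07 for Cldn11, the tight junction protein of myelin; 0.15 for Opalin, a glycoprotein of oligodendrocytes; 0.23 for Ermn, a protein of their actin cytoskeleton; 0.18 for Mal, a lipid raft protein that sorts membrane; and -0.05 for Gjb1, connexin 32. The standard errors of these 6 genes were between 0.14 and 0.24. Ermn was at -0.20 ± 0.21 without the 5 libraries. With each library's trend on transcript GC content removed, as described further on, Ermn was at -0.13 ± 0.18. Its sign thus changed in both settings.

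The 5 enzymes of myelin lipid and metabolism had medians of -0.02, -0.03 and -0.06 in the 3 comparisons. Ugt8a makes galactosylceramide and Fa2h supplies its hydroxylated fatty acids. Ugt8a was 38.6 to 52.5 CPM in controls (median 49.1), 31.1 to 68.6 CPM in CSDS mice (median 46.4) and 19.7 to 103 CPM with exercise (median 54.7). Fa2h was 38.4 to 63.7 CPM in controls (median 43.3), 39.8 to 58.5 CPM in CSDS mice (median 48.8) and 19.4 to 68.0 CPM with exercise (median 42.1). For both genes the lowest of all 18 libraries was exercise replicate 5 and the highest was exercise replicate 6, so the exercise group spanned the others.

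Exercise replicate 5 was low in these galactolipid enzymes but not in most of the sheath genes. Relative to Mog in the same library, Ugt8a stood at -2.13 on the log2 scale in that mouse, against -1.31 to -0.33 in the other 17, and Fa2h at -2.16, against -1.50 to -0.31. Tspan2 at 1.02 and Mag at 1.18 relative to Mog lay within the range of the other 17 mice. Ermn, Anln and Enpp6 also lay below the range of the other 17 mice, by much less, and Mobp and Opalin lay above it. What sets this mouse apart was not tested.

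Aspa, which breaks down N-acetylaspartate and so supplies acetate for lipids, was 9.66 to 18.7 CPM in controls, 7.68 to 20.8 CPM in CSDS mice and 8.27 to 24.1 CPM with exercise. Qdpr, which regenerates tetrahydrobiopterin, and Car2, a carbonic anhydrase, had log2 differences between -0.08 and -0.02 in all 3 comparisons.

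Of the 11 other genes of mature oligodendrocytes, 3 were higher and 8 lower in CSDS mice than in controls (median -0.09), 7 higher and 4 lower with exercise than with CSDS alone (median 0.06), and 4 higher and 7 lower with exercise than in controls (median -0.06). The extreme values belonged to Klk6, a secreted serine protease with few counts. It was 0.381 to 2.47 CPM in controls (median 1.44), 0.228 to 1.52 CPM in CSDS mice (median 0.466) and 0.310 to 4.93 CPM with exercise (median 0.626). Control replicates 1, 2 and 3 and exercise replicate 6 were the highest libraries, all of them among the 5 libraries that stood apart in markers of other regions. The log2 difference was -1.10 ± 0.67 for CSDS against control (unadjusted p = 0.116, adjusted p = 0.993) and 0.95 ± 0.67 for exercise against CSDS (adjusted p = 0.480). Without the 5 libraries these became -0.03 ± 0.55 and -0.41 ± 0.52.

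Plekhb1, a membrane protein with a pleckstrin homology domain, was 267 to 486 CPM in controls (median 393) and 261 to 405 CPM in CSDS mice (median 305). Most CSDS mice lay low in the control range, and CSDS replicate 6 was the lowest of all 18 libraries. The log2 difference of CSDS against control was -0.24 ± 0.15 (unadjusted p = 0.126) and became -0.05 ± 0.14 without the 5 libraries. Gsn, the actin-severing protein gelsolin, was 104 to 154 CPM in CSDS mice (median 137) and 87.0 to 151 CPM with exercise (median 98.8). With exercise 3 of 6 mice lay below the lowest CSDS mouse and replicate 6 lay near the top of the CSDS range. The log2 difference of exercise against CSDS was -0.29 ± 0.16 (adjusted p = 0.381), and -0.11 ± 0.15 with the GC trend of each library removed. Gsn without the 5 libraries was at -0.39 ± 0.16 in that comparison and went from -0.17 to -0.43 ± 0.18 for exercise against control. Trf, the iron carrier transferrin, Gpr37, a receptor of mature oligodendrocytes, Adamts4, a secreted protease, and Anln, an actin-binding scaffold protein, differed by at most 0.14 in absolute log2 value in every comparison. Ninj2, an adhesion molecule, was at 0.636 to 2.52 CPM in all libraries, and its difference of exercise against CSDS was 0.46 ± 0.32. Ppp1r14a, an inhibitor of myosin phosphatase, Tmem125 and Tmem88b had standard errors as large as their differences in exercise against CSDS or larger.

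The 3 genes of maturing cells did not move together. Bcas1, which marks cells beginning to myelinate, was 154 to 220 CPM in controls (median 177), 119 to 198 CPM in CSDS mice (median 182) and 149 to 284 CPM with exercise (median 178). Enpp6, a choline-lipid phosphodiesterase of newly formed oligodendrocytes, was 7.73 to 12.0 CPM in controls (median 9.79), 4.68 to 12.2 CPM in CSDS mice (median 9.51) and 5.5 to 15.5 CPM with exercise (median 10.3). For both genes the group medians nearly coincided, CSDS replicate 6 was the lowest of all libraries and exercise replicate 6 the highest. Their log2 differences lay between -0.07 and 0.15 with standard errors of 0.15 and 0.24.

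Gpr17, a receptor of committed precursors that is switched off as cells mature, was 53.3 to 111 CPM in controls (median 87.9), 56.5 to 124 CPM in CSDS mice (median 97.7) and 66.5 to 88.5 CPM with exercise (median 74.8). The exercised mice formed a narrow band inside the range of the other groups. The log2 differences were 0.13 ± 0.18 for CSDS against control, -0.32 ± 0.18 for exercise against CSDS (unadjusted p = 0.0984, adjusted p = 0.394) and -0.19 ± 0.18 for exercise against control. These were -0.13 ± 0.19, a change of sign, -0.42 ± 0.18 and -0.55 ± 0.20 without the 5 libraries that stood apart.

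The 5 lineage transcription factors were all lower with exercise than with CSDS alone, with a median log2 difference of -0.45. Of them 3 had an unadjusted p under 0.05, where 7.46% of all genes were lower at that level. In CSDS mice against controls 4 were higher and 1 lower (median 0.15), and with exercise against controls 1 was higher and 4 lower (median -0.25). With the 5 libraries that stood apart left out, all 5 were again lower with exercise than with CSDS alone (median -0.49), 4 of them with an unadjusted p under 0.05, where 5.67% of all genes were lower at that level. The same step gave 3 higher and 2 lower in CSDS mice against controls (median 0.04), and 0 higher and 5 lower with exercise against controls (median -0.45), 3 of these with an unadjusted p under 0.05, where 4.42% of all genes were lower at that level. These differences did not pass the adjusted test, and all 5 genes have GC-rich transcripts, a property that moved with the libraries as described further on.

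**Figure D3:**
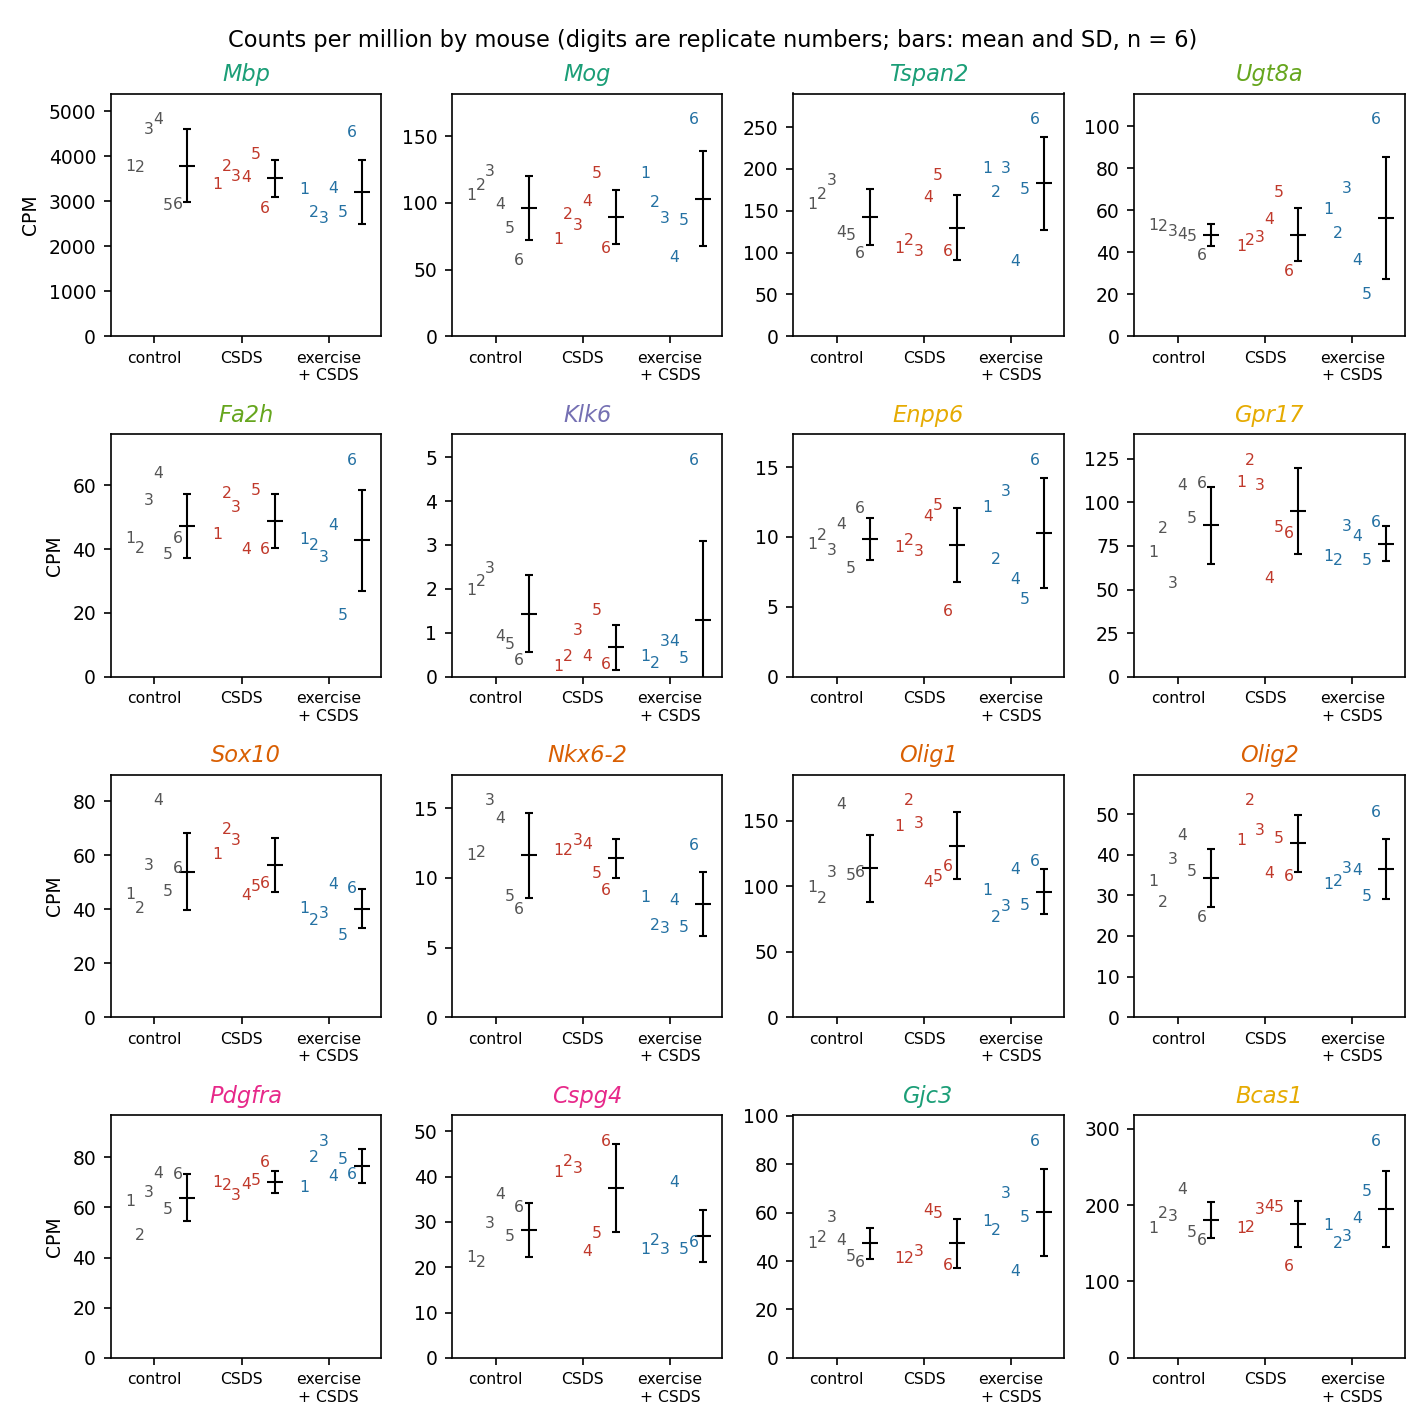
CPM of 16 of the genes in each mouse (digits are replicate numbers) by group, with the mean and SD of 6 mice at the right of each group; axes start at 0, where the SD bar of Klk6 in the exercise group is cut. Sox10, Olig1 and Nkx6-2 sit lower in most exercised mice than in CSDS mice, with overlap between the groups in each.

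Sox10, which keeps cells in the lineage and activates myelin genes, was 40.5 to 80.3 CPM in controls (median 50.8), 45.1 to 69.7 CPM in CSDS mice (median 54.9) and 30.3 to 49.1 CPM with exercise (median 39.3). With exercise 4 of 6 mice were below the lowest CSDS mouse, and replicates 4 and 6 were within the CSDS range. Sox10 thus differed by 0.06 ± 0.16 on the log2 scale for CSDS against control, -0.49 ± 0.16 for exercise against CSDS (unadjusted p = 0.00668, adjusted p = 0.213) and -0.42 ± 0.16 for exercise against control (unadjusted p = 0.0158, adjusted p = 0.335). The last of these was -0.64 ± 0.20 without the 5 libraries.

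Nkx6-2, a homeodomain factor of maturing oligodendrocytes, was 7.71 to 15.5 CPM in controls (median 11.7), 9.09 to 12.7 CPM in CSDS mice (median 12.0) and 6.35 to 12.3 CPM with exercise (median 7.46). All exercised mice but replicate 6 lay below the lowest CSDS mouse. Nkx6-2 differed by -0.03 ± 0.18, -0.49 ± 0.18 (unadjusted p = 0.0147, adjusted p = 0.242) and -0.52 ± 0.18 (unadjusted p = 0.0107, adjusted p = 0.306) on the log2 scale, in the same order of comparisons.

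Olig1, a basic helix-loop-helix factor needed for maturation, was 90.9 to 163 CPM in controls (median 109), 103 to 166 CPM in CSDS mice (median 131) and 76.0 to 119 CPM with exercise (median 91.1). The lower 4 exercised mice were below all CSDS mice, and replicates 4 and 6 were inside their range. The log2 difference was 0.20 ± 0.15, -0.45 ± 0.15 (unadjusted p = 0.00825, adjusted p = 0.219) and -0.25 ± 0.15. Olig1 without the 5 libraries was at 0.04 ± 0.18 for CSDS against control and at -0.45 ± 0.19 for exercise against control.

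Olig2, the partner factor that specifies the lineage and is expressed at every stage, was 24.6 to 44.6 CPM in controls (median 34.6), 34.5 to 53.3 CPM in CSDS mice (median 43.8) and 29.7 to 50.5 CPM with exercise (median 34.8). The 6 highest libraries were 4 CSDS mice, control replicate 4 and exercise replicate 6. Its log2 difference of CSDS against control was 0.32 ± 0.15 (unadjusted p = 0.0463, adjusted p = 0.993), and that of exercise against CSDS was -0.23 ± 0.15 (adjusted p = 0.450), and -0.37 ± 0.16 without the 5 libraries.

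Myrf, the membrane-tethered factor that turns on myelin genes at the end of differentiation, was 57.2 to 119 CPM in controls (median 75.5), 70.7 to 114 CPM in CSDS mice (median 83.3) and 64.1 to 101 CPM with exercise (median 70.8). The 3 groups overlapped throughout. The log2 differences were 0.15 ± 0.17, -0.20 ± 0.17 and -0.06 ± 0.17, and without the 5 libraries -0.01 ± 0.19, -0.26 ± 0.17 and -0.27 ± 0.20.

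The 2 precursor genes went different ways. Pdgfra, the receptor through which platelet-derived growth factor drives division of precursors, was 48.9 to 73.6 CPM in controls (median 64.2), 64.9 to 77.9 CPM in CSDS mice (median 69.5) and 67.8 to 86.5 CPM with exercise (median 76.2). The lowest controls lay below all other mice, and neighbouring groups overlapped. Pdgfra differed by 0.14 ± 0.09 on the log2 scale for CSDS against control, 0.12 ± 0.09 for exercise against CSDS and 0.26 ± 0.09 for exercise against control (unadjusted p = 0.0109, adjusted p = 0.306). Control replicate 2 was the lowest library, and without the 5 libraries the last difference was 0.12 ± 0.10.

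Cspg4, which encodes the NG2 proteoglycan of precursors and is also made by pericytes, was 21.0 to 36.1 CPM in controls (median 28.2), 23.4 to 47.9 CPM in CSDS mice (median 41.4) and 23.8 to 38.7 CPM with exercise (median 24.7). In the CSDS group 4 mice stood between 40.8 and 47.9 CPM, above every mouse of the other groups, and replicates 4 and 5 lay with the controls. Cspg4 differed by 0.41 ± 0.18 on the log2 scale for CSDS against control (unadjusted p = 0.0350, adjusted p = 0.993) and -0.48 ± 0.18 for exercise against CSDS (unadjusted p = 0.0166, adjusted p = 0.247), with -0.07 ± 0.18 for exercise against control. The first 2 of these comparisons share the CSDS mice. The first was 0.22 ± 0.22 without the 5 libraries. Markers of mural cells and meningeal fibroblasts had a median log2 difference of 0.14 in the first comparison and -0.20 in the second, and their part in the result for Cspg4 was not tested.

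The GC content of the transcripts moved with the differences of exercise against both other groups. The transcripts of the 5 transcription factors had 58.2% to 65.0% GC and that of Cspg4 58.3%, while Ermn, Ugt8a, Aspa and Tspan2 had 38% to 44.0%, and the median over all genes tested was 50.5%. Across the 38 genes, which are not independent replicates, the correlation of the log2 difference with GC content was 0.14 for CSDS against control, -0.63 for exercise against CSDS and -0.75 for exercise against control. The trend of log2 level on GC content in single libraries, per 10 percentage points, was -0.09 to 0.31 in controls, -0.15 to 0.28 in CSDS mice and -0.44 to 0.19 in exercised mice, where replicate 4 was the only library with a rising trend.

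With each library's GC trend removed in the edgeR fit, the differences of the transcription factors were much smaller. For exercise against CSDS, Sox10 stood at -0.09 ± 0.12, Olig1 at -0.10 ± 0.10, Nkx6-2 at -0.04 ± 0.22, Olig2 at 0.03 ± 0.15 and Myrf at 0.03 ± 0.14, with a median of -0.04 over the 5. Cspg4 was at -0.23 ± 0.12 and Tspan2 at 0.31 ± 0.18, and 0 members had an unadjusted p under 0.05 in that comparison, where 5.96% of all genes did. Mobp, with 53.3% GC, did not shrink and stood at 0.37 ± 0.19. Pdgfra, with 51.2% GC, kept 0.26 ± 0.09 for exercise against control, and Cspg4 kept 0.32 ± 0.12 for CSDS against control. Whether the GC trend of the libraries is technical or part of the tissue's response was not tested.

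**Figure D4:**
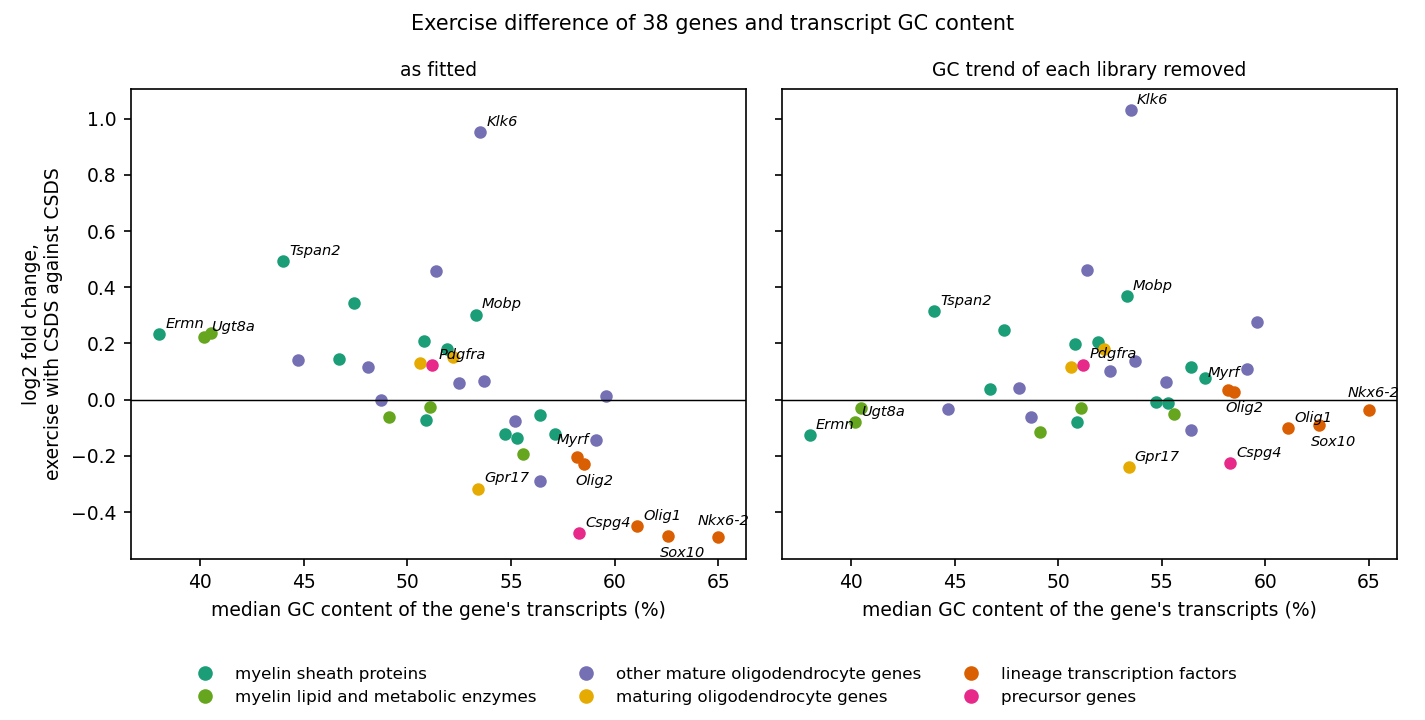
Log2 fold change of exercise with CSDS against CSDS (vertical) for the 38 genes against the median GC content of each gene's transcripts (horizontal, percent), as fitted (left) and after removal of each library's GC trend (right); colours are gene classes. The correlation across genes is -0.63 on the left and -0.01 on the right, where the transcription factors lie between -0.10 and 0.03.

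Weighting the libraries by their quality changed the count of calls. In limma voom with sample weights, 10 members passed for exercise against CSDS, where 33.3% of all genes passed: Cspg4, Gpr17, Nkx6-2, Olig1, Olig2 and Sox10 were lower, and Gjc3, Mobp, Ninj2 and Tspan2 were higher. This was a smaller share of the members than of all genes. The sample weights ran from 0.26 for control replicate 2 and 0.31 for exercise replicate 4 to 3.52 for CSDS replicate 1, with 2.70 for exercise replicate 1. In edgeR without exercise replicate 4, 625 of 16856 genes passed for exercise against CSDS, none of them a member.

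Exercise replicate 6 carried much of what the mature genes showed. It was the highest of the 18 libraries for 20 of the 38 genes, no other library was the highest for more than 6, and it also had the highest level of thalamic markers. Without it the median log2 difference of the members for exercise against CSDS was -0.14 in place of 0.01, and 8 members changed sign. Without all 5 libraries that stood apart, the median was -0.21 for exercise against CSDS, with 10 members higher and 28 lower, and 0 members passed. In CSDS against control the same step took the median from -0.03 to 0.05, with 25 members higher and 13 lower in place of 17 and 21. For exercise against CSDS it left 0 higher and 5 lower of the lipid and metabolic enzymes, 2 and 9 of the other mature genes and 1 and 2 of the maturing genes. With the GC trend removed in all 18 libraries these counts were 0 and 5, 8 and 3, and 2 and 1.

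From mouse to mouse most mature genes varied together, and the correlations of both precursor genes with Mog were below 0. As a description over the 18 mice, after subtraction of group means, the correlation with Mog had a median of 0.77 over the 27 other mature genes, and 12 of them exceeded 0.8, led by Opalin at 0.95, Cldn11 at 0.92, Mal at 0.91 and Tspan2 at 0.90. Gpr37, a receptor, was lowest among the mature genes at 0.22. Pdgfra stood at -0.33, Gpr17 at -0.33 and Cspg4 at -0.60. The 18 points share the library scaling and the GC trend of each library, and exercise replicate 6 is at the top of most mature genes; the part of dissection in these correlations was not tested.

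With each library's GC trend removed, the median correlation with Mog over the mature genes was 0.86, and 16 of 27 exceeded 0.8. The GC-rich sheath genes Mag, Mbp and Cnp went from 0.59, 0.69 and 0.75 to 0.83, 0.84 and 0.88. Among the transcription factors Nkx6-2 went from 0.64 to 0.89, Olig2 from 0.47 to 0.74, Sox10 from -0.08 to 0.44, Olig1 from -0.07 to 0.45 and Myrf from 0.12 to 0.40, while Pdgfra at -0.31 and Cspg4 at -0.61 stayed below 0.

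Of 8 pairs of members tested over all 18 mice, 4 had a Benjamini-Hochberg adjusted permutation p under 0.05 for Pearson's r. Mog and Ugt8a had the highest r in the values as scaled (r = 0.68, permutation p = 0.00194, adjusted p = 0.0155; Spearman's rho = 0.80, permutation p = 0.00015, adjusted p = 0.0012), with r = 0.92, 0.95 and 0.66 within the control, CSDS and exercise groups and 0.55 without the 2 mice farthest from the median of Mog. Mog and Mbp gave r = 0.59 (permutation p = 0.00993, adjusted p = 0.0397; rho = 0.55, permutation p = 0.0203, adjusted p = 0.0557), with 0.76, 0.87 and 0.58 within groups and 0.47 without those 2 mice. Mog and Mag gave r = 0.53 (permutation p = 0.0234, adjusted p = 0.0468; rho = 0.53, permutation p = 0.0266, adjusted p = 0.0557), with 0.49, 0.43 and 0.74 within groups and 0.29 without the 2 mice, so that relation, as scaled, rests on them. With control replicate 2 left out, Mog and Ugt8a was the only pair of the 8 that passed (r = 0.68, adjusted permutation p = 0.0262).

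Mog and Enpp6 gave r = 0.54 (permutation p = 0.0219, adjusted p = 0.0468; rho = 0.52, permutation p = 0.0278, adjusted p = 0.0557) and 0.63 without those 2 mice. Within groups r was -0.37 in controls, 0.83 in CSDS mice and 0.70 in exercised mice, so the relation did not hold in the control group. The other 4 pairs did not pass. Mog and Pdgfra gave r = -0.22 (permutation p = 0.39, adjusted p = 0.445; rho = -0.24, permutation p = 0.341) and -0.30 without those 2 mice. The precursor genes Pdgfra and Cspg4 gave r = 0.23 (permutation p = 0.378, adjusted p = 0.445; rho = 0.18, permutation p = 0.476), with 0.89 within controls, 0.20 within CSDS mice, -0.28 within exercised mice and 0.15 without the 2 mice farthest from the median of Pdgfra. Enpp6 and Gpr17 gave r = 0.16 (permutation p = 0.533, adjusted p = 0.533; rho = 0.21, permutation p = 0.402), and 0.05 without their 2 farthest mice. Mog and Olig2 gave r = 0.34 (permutation p = 0.171, adjusted p = 0.273; rho = 0.15, permutation p = 0.561), and -0.10 without the 2 mice. With each library's GC trend removed the order of the pairs changed: Mog and Mag gave r = 0.82 (adjusted permutation p = 0.00016; 0.71 without the 2 mice), Mog and Mbp 0.79 (adjusted permutation p = 0.00036; 0.71 without them) and Mog and Ugt8a 0.52 (adjusted permutation p = 0.0425; 0.38 without them). Mog and Olig2 then gave r = 0.65 (adjusted permutation p = 0.00909), but rho missed the threshold (0.47, adjusted permutation p = 0.081) and r was 0.30 without the 2 mice. Within the control, CSDS and exercise groups r was 0.708, 0.805 and 0.735, and the CSDS group holds neither of those 2 mice.

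**Figure D5:**
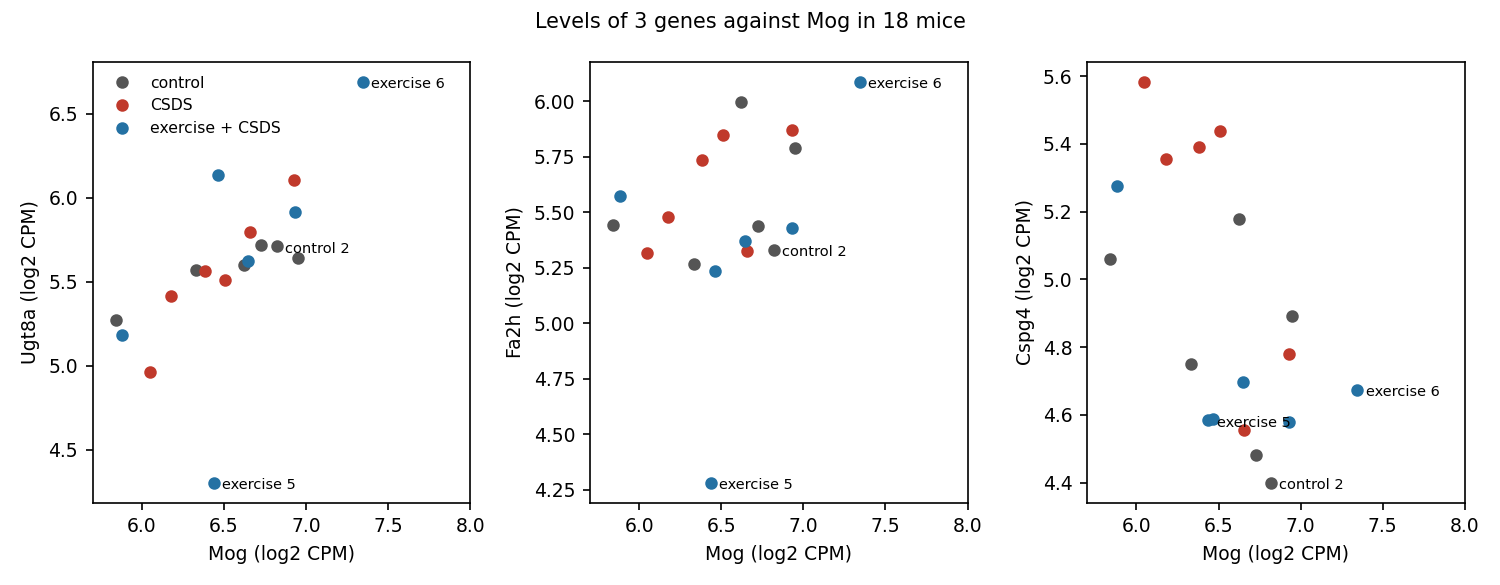
Log2 CPM of Ugt8a, Fa2h and Cspg4 (vertical) against Mog (horizontal) in the 18 mice, coloured by group, with control replicate 2 and exercise replicates 5 and 6 named. Ugt8a follows Mog (r = 0.68), exercise replicate 5 lies far below the other mice for Ugt8a and Fa2h, and Cspg4 has a correlation of -0.60 with Mog after subtraction of group means.

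The balance between stages can be read as a difference of mean log2 levels. The mean of Pdgfra and Cspg4 minus the mean of the 28 mature genes was -1.19 to -0.10 in controls (median -0.83), -1.0 to 0.25 in CSDS mice (median -0.37) and -1.39 to -0.06 with exercise (median -0.57). The mean of the 5 transcription factors minus the mature genes was -0.97 to -0.37 in controls (median -0.72), -0.93 to -0.18 in CSDS mice (median -0.28) and -1.13 to -0.36 with exercise (median -0.98). All groups overlapped on both measures. The lowest controls on both were replicates 1, 2 and 3, which are among the 5 libraries that stood apart. Control replicates 4, 5 and 6 were at -0.66, -0.63 and -0.10 on the first measure and at -0.37, -0.64 and -0.41 on the second. Exercise replicate 6, also among the 5, was the lowest exercised mouse on both. The GC trend was not removed from these levels, and its part and that of the 5 libraries were not tested.

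Further genes of the lineage, listed apart from the 38, also gave no call. Of 14 further precursor genes, 0 passed in any comparison. In CSDS mice 11 were higher than in controls (median 0.08), and 10 were higher with exercise than in controls (median 0.17). Of these 10, 4 had an unadjusted p under 0.05, where 6.80% of all genes were higher at that level. Without the 5 libraries 5 were higher and 9 lower with exercise against control (median -0.03). At that level 1 was then higher and 1 lower, where 10.6% of all genes differed in either direction. Vcan, the matrix proteoglycan versican, was 12.3 to 16.1 CPM in controls (median 15.3), 12.7 to 18.4 CPM in CSDS mice (median 16.0) and 16.7 to 21.8 CPM with exercise (median 19.8). Every exercised mouse was above every control, a separation that 0.562% of all genes showed in either direction. The log2 difference of exercise against control was 0.41 ± 0.11 (unadjusted p = 0.000939, adjusted p = 0.189), 0.30 ± 0.09 with the GC trend removed and 0.33 ± 0.14 without the 5 libraries. Ptprz1, a receptor phosphatase of precursors and astrocytes, differed by 0.29 ± 0.10 in that comparison (adjusted p = 0.306) and by 0.05 ± 0.11 with the GC trend removed. Matn4, a matrix protein, had the smallest p of CSDS against control (0.38 ± 0.16, unadjusted p = 0.0280, and 0.24 ± 0.12 with the GC trend removed).

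Of 12 further maturing genes, 9 were higher in CSDS mice than in controls and 4 were higher with exercise than with CSDS alone (medians 0.12 and -0.09), and 0 passed. With the 5 libraries left out, 5 were higher and 7 lower in each of these comparisons (medians -0.01 and -0.06). Tcf7l2, a Wnt effector of newly formed oligodendrocytes that is also strongly expressed in thalamus and is one of the thalamic markers, had log2 differences of -2.07 ± 0.88 and 2.78 ± 0.90 in these comparisons. Without the 5 libraries these were -0.39 ± 0.17 and 0.21 ± 0.16. Of 30 further myelin genes, 12 were higher and 18 lower in CSDS mice than in controls (median -0.04), and 16 higher and 14 lower with exercise than with CSDS alone (median 0.02); 0 passed. Dock10, one of these 30 genes, is also among the dentate granule cell markers. Without the 5 libraries the counts for exercise against CSDS were 6 higher and 24 lower (median -0.12). With the GC trend removed in all 18 libraries they were 20 higher and 10 lower (median 0.08). Gal3st1, which sulphates galactosylceramide to sulfatide, had the smallest p of exercise against CSDS in that list (-0.54 ± 0.18, unadjusted p = 0.00789, adjusted p = 0.219), and stood at -0.26 ± 0.17 with the GC trend removed. Of 17 tested receptors and regulators of the lineage, 0 passed. With exercise against control 3 were higher at an unadjusted p under 0.05, where 6.80% of all genes were higher at that level. These were Ntrk3, the neurotrophin-3 receptor, at 0.36 ± 0.12, Tcf4, a partner of the basic helix-loop-helix factors, at 0.32 ± 0.11, and Id4, an inhibitor of those factors, at 0.33 ± 0.12. Which cells of the bulk tissue the RNA of these genes came from was not tested. With the GC trend removed 2 of the 17 were higher and 0 lower at that level. Without the 5 libraries 6 were higher and 11 lower in that comparison (median -0.02), with 1 higher and 1 lower at that level.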

How the data were processed

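Poly(A)-selected stranded mRNA libraries from 18 hippocampi were sequenced, 1 per mouse; nothing in the labels gives more than 1 batch. The values are expected counts per Ensembl gene as deposited: per the submitters' processing notes the tools were fastp, HISAT2 and RSEM on GRCm38/mm10, and their versions, the annotation and whether strand was used in counting are not stated in the sources. RSEM splits multi-mapping reads, so values of overlapping or near-identical genes are less certain, and 22.7% of nonzero values were not whole.

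Counts were rounded and tested with edgeR 4.0.16 (R 4.3.3; quasi-likelihood test, TMM scaling, Benjamini-Hochberg adjustment over all 16738 tested genes, threshold 0.05) in 1 fit of the 3 groups. A gene was tested with at least 10 counts' worth of CPM in a group's number of libraries and 15 counts in all. Log2 CPM values used a prior count of 2. Totals of 18911080 to 24136591 set the depth, and the p-values of the group tests set each difference against the estimated spread between mice. Symbols were matched for 51884 of 57180 identifiers. GC content came from GENCODE transcripts (98.1% of tested genes), and a lowess trend of span 0.3 was removed per library in the GC alternative. Correlations used 100000 permutations, with Python 3.11.15 and SciPy 1.17.1.

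Alternatives were DESeq2 1.42.0, limma 3.58.1 voom with sample weights, other scalings, other filters on low counts, fits of only 2 groups, a replicate block, GC correction and leaving out each library. All 38 members are accounted for. Full values go to 12 genes chosen by name, the 4 members with the smallest p in each comparison, and up to 3 genes of each further list with the smallest p per comparison. The members and lists were chosen with earlier results of these data known. The scripts were tested on simulated data. Gbx2, Ncmap and Olig3 were listed but had too few counts to test. Of 7 listed Schwann cell markers, Ncmap among them, 5 were tested.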

Additional observations from a re-analysis of the deposited data

Results flagged for a closer look

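In 11 of 114 groups of 6 mice (38 genes in 3 groups), 1 mouse lay farther from the rest than Dixon's test allows at the 95% level; chance alone gives about 1 in 20 groups. Exercise replicate 6 was the high mouse in 5 of them: Mag at 349 CPM, Gjb1 at 22.3 CPM, Trf at 585 CPM, Plekhb1 at 476 CPM and Klk6 at 4.93 CPM. It also had the highest thalamic markers of all 18 libraries. Control replicate 6 was the low control for Opalin, at 19.2 CPM, and Ugt8a, at 38.6 CPM. CSDS replicate 6 was the low mouse of its group for Bcas1, at 119 CPM, and Enpp6, at 4.68 CPM. Olig1 was high in control replicate 4, at 163 CPM, and Cspg4 was high in exercise replicate 4, at 38.7 CPM; these were the libraries of their groups with the steepest rising trend of level on GC content. The genes vary together from mouse to mouse, so the 11 are not independent.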

How the results depend on the processing

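No member was called in any setting except limma voom with sample weights, which called 10 members for exercise against CSDS. For all genes, DESeq2 called 1 gene in CSDS against control, 150 in exercise against CSDS and 111 in exercise against control; voom called 0, 5567 and 183. For exercise against CSDS, the count was 2 with no filter on low counts, 1 with only the groups compared and 1 with GC correction; for exercise against control it was 0 with no filter, with a filter of 1 CPM, with only the groups compared, with GC correction and without the 5 libraries. Leaving out 1 mouse gave 0 to 625 genes for exercise against CSDS (625 without exercise replicate 4 and 43 without CSDS replicate 5) and 0 to 13 for exercise against control (13 without exercise replicate 4). The cause was not tested.

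Replicate numbers do not pair the mice by the labels, and same-numbered mice had correlations of -0.465 to 0.255. With the replicate block 0 genes were called in each comparison, exercise against control included, and 0 with GC correction and the replicate block together.

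With RLE scaling, Mog and Mag gave r = 0.518 and Mog and Enpp6 0.523, no longer past the threshold after adjustment. Without control replicate 2, Pdgfra and Cspg4 gave r = -0.00798, a change of sign, and Mog and Mag (r = 0.562), Mog and Mbp (r = 0.584) and Mog and Enpp6 (r = 0.535) narrowly missed the threshold after adjustment. With the GC trend removed, Mog and Olig2 gave r = 0.65 and passed by Pearson's r but not by Spearman's rho, and r was 0.298 without exercise replicate 6 and control replicate 6. No member changed direction where both values exceeded their standard errors. Of the 38 members, 10, 18 and 15 kept 1 sign in every setting in the 3 comparisons; without exercise replicate 6 the member medians of exercise against CSDS and against control were -0.14 and -0.16, and GC correction gave 0.04 and -0.00473. The GC-removed pairs and the fit without the 5 libraries were chosen after seeing the data.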
